A study of Mus musculus with 6 samples.

Results

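The genes described are *Txndc5*, which was inactivated in the knockout mice, and 9 further genes of the protein disulfide isomerase (PDI) family: *P4hb*, *Pdia3*, *Pdia4*, *Pdia5*, *Pdia6*, *Erp29*, *Erp44*, *Tmx1* and *Txndc12*. They were chosen by name, and all 10 were found among the 16123 genes of the deposited expression table. RNAseq was performed on polyadenylated liver RNA of male mice. They were put on a purified chow diet at 2 months of age for 4 weeks and fasted for 16 h before the livers were taken. The wild-type (WT) libraries were pools 1, 2 and 5 of C57BL/6Rj mice, and the knockout (KO) libraries were pools 2, 3 and 4 of mice of the strain C57BL/6JRj-Txndc5<em2Mdnp>/Ciba. The KO strain lacks exon 3 of *Txndc5* in all tissues, descends from 1 founder male edited with Cas9 in the zygote, and was bred to homozygosity. Each pool joined liver RNA of 3 mice, so that the spread between animals is not seen. The strain label goes with genotype and cannot be told apart from it, while the authors state that males of both genotypes came from heterozygous crosses.

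PDIs make, break and rearrange disulfide bonds between cysteines of proteins that enter the endoplasmic reticulum (ER). Each carries one or more domains folded like thioredoxin, and in the catalytic ones a pair of cysteines with a pair of residues between them swaps electrons with the client protein. The reduced pair is reoxidized by ER oxidases such as ERO1, and most soluble members carry a short retrieval signal at the C terminus that returns them to the ER. Hepatocytes secrete most plasma proteins, many of them with disulfide bonds, and are rich in these enzymes.

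The active sites of the family are shown first, since they define what the deleted gene shares with the members that remain. *Txndc5* (NCBI Gene 105245) lies on the minus strand at chr13:38500079-38528824 in GENCODE M21 on GRCm38, the same build as mm10. Its longest coding transcript has 10 exons, 2843 bases and 417 codons. The 3 active sites of *Txndc5*, the 2 of *P4hb* and the 1 of *Tmx1* and of *Txndc12* are given below with 9 bases on each side, read 5′ to 3′ on the coding strand. The codons of both cysteines are in capitals.
Txndc5 site 1: gcgccctggTGTggacacTGCcagcggctg
Txndc5 site 2: gctccgtggTGCggtcacTGCaaagctctg
Txndc5 site 3: gctccgtggTGTggccacTGTaagaatctg
P4hb site 1: gccccgtggTGTggccacTGCaaagctctg
P4hb site 2: gccccttggTGTggtcacTGCaagcagcta
Tmx1 site 1: gctccctggTGTcctgctTGTcagaatctt
Txndc12 site 1: aaatcttggTGTggagccTGCaaagcttta

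The 12 bases from cysteine to cysteine lie at chr13:38523466-38523477, in exon 2, for site 1 of *Txndc5*, at chr13:38510199-38510210, in exon 5, for site 2, and at chr13:38503548-38503559, in exon 9, for site 3. Those of *P4hb* lie at chr11:120571705-120571716, in exon 2, and at chr11:120562523-120562534, in exon 9, on the minus strand. The site of *Tmx1* lies in exon 2 at chr12:70456025-70456036, and that of *Txndc12* in exon 3 at chr4:108853206-108853217, both on the plus strand. All 3 sites of *Txndc5* and both sites of *P4hb* place glycine and histidine between the cysteines. *Pdia3* and *Pdia6* have 2 such sites each and *Pdia4* has 3. *Pdia5* also has 3 sites, of which 1 holds glycine and histidine. *Tmx1* and *Txndc12* have other residues there, and the coding sequences of *Erp29* and *Erp44* hold no pair of cysteines at this spacing.

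The last 4 codons before the stop also set members apart, since they encode the retrieval signal. They are shown for *Txndc5*, for the member with the highest level, *P4hb*, and for *Pdia3* and *Tmx1*, whose ends depart from the pattern of the other 8.
Txndc5 end: aaggatgaacta
P4hb end: aaggatgaactg
Pdia3 end: caagaggacctc
Tmx1 end: acggacacatcc

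A tail of any residue followed by aspartate or glutamate, glutamate and leucine was found in 8 of the 10 members, *Erp29* and *Erp44* included. The end of *Pdia3*, glutamine, glutamate, aspartate and leucine, is a variant that is also known as a retrieval signal. *Tmx1* encodes a protein anchored in the ER membrane. Over the aligned positions, the encoded protein of *Txndc5* was identical to that of the other members at 26.7% (*Tmx1*) to 36.1% (*Pdia4*) of residues.

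The exon removed in the KO strain was taken by its number, as exon 3 of the longest coding transcript, and the edited site was not mapped here. This exon 3 lies at chr13:38518983-38519088 and holds 106 coding bases, shown whole because its length decides the reading frame of what remains.
Txndc5 exon 3: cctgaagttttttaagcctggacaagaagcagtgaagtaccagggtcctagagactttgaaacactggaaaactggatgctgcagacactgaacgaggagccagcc

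This is 3.73% of the transcript, and it lies between the first and the second active site. A transcript that joined exon 2 to exon 4 would keep 123 whole codons, with site 1, and would then be read in another frame over 113 codons to a stop in exon 7. The start of such a join is printed with the last 30 bases of exon 2 and the cysteine codons of site 2 in capitals, and 150 bases from exon 4 on in lower case otherwise. The last bases before the stop follow, with the stop in capitals.
Txndc5 joined: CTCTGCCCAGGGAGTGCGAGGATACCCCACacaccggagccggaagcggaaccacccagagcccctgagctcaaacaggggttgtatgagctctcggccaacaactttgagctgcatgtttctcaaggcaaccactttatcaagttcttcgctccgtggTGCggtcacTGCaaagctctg
Txndc5 joined end: acaagggaaagcgggacttggagtcacTGA

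The bases of site 2 remain in such a transcript, out of frame, and site 3 lies beyond the stop. The joined sequence was built from the annotation and was not observed in the files, which hold no reads by exon.

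**Figure D1:**
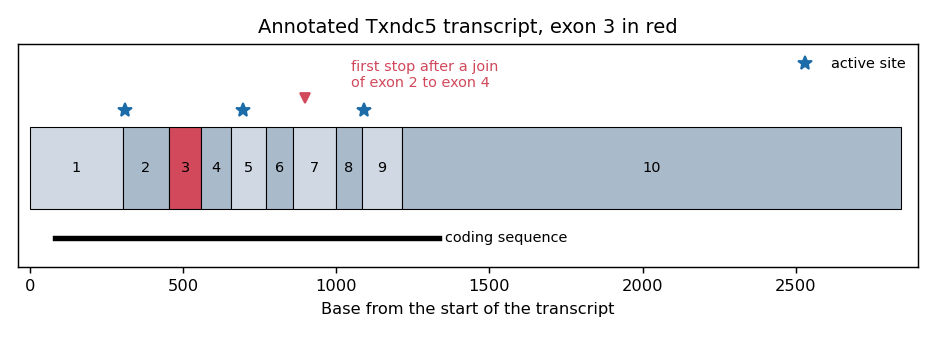
The horizontal axis gives the base from the start of the annotated *Txndc5* transcript, with its 10 exons as boxes, exon 3 in red and the coding sequence as a black bar. Stars mark the 3 active sites, 1 before and 2 after exon 3, and the red triangle marks the stop in exon 7 that a join of exon 2 to exon 4 would reach.

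For each gene the authors deposited 1 value per genotype, in reads divided by the size factor of the library and combined over libraries. No spread between pools can be given for these values, no test can be made on them, and the level of a member in a single pool is not known except where it is given below from recovered reads. A ratio of KO over WT was counted as past the limit beyond 1.5-fold, which is 0.585 on the log2 scale. Of 14106 genes whose mean value reached 1, 7.93% were past 1.5-fold, 5.92% with a lower and 2.01% with a higher value in KO, and the median log2 ratio was −0.05. The deposited ratios are drawn toward 0: in weakly expressed genes whose reads could be recovered, the median of the deposited log2 ratio over the recovered one went from 0.671 for sums of 60 to 150 normalized reads to 0.826 for sums of 400 to 650. In these genes the WT and KO values are thus drawn toward each other and are not plain means of the libraries of a genotype. *Pdia2*, a relative listed below, had 0 recovered reads in WT and a deposited WT value of 0.356. How far this holds for the members was not tested. All 10 members had a mean value that reached 1.

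*Txndc5* had a deposited value of 2697 in WT and 90.8 in KO. The KO value was 3.37% of that in WT, a ratio of 29.7-fold and a log2 ratio of −4.89. It was the lowest ratio of all 7063 genes whose mean value reached 100. Among the genes most like it by this measure were *Pnn*, which encodes a protein of nuclear speckles and the exon junction, with a log2 ratio of −1.30, *Hmgn5*, a nucleosome binding protein, with −1.17, and *Hook3*, an adaptor that links cargo to dynein, with −1.17. The value of *Pnn* was 149.3 in WT and 60.7 in KO, so that the gap from *Txndc5* to the next gene was wider than that from *Pnn* to *Hook3*.

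The value of 90.8 in KO does not tell which exons were read, nor in which of the 3 pools. If it too was drawn toward the WT value, the mean of the KO libraries would be lower. Bases of 3 other annotated genes lie within the span of *Txndc5*, introns included. *Bmp6*, which encodes a growth factor that regulates iron in the liver, lies on the opposite strand and shares 224 bases with the 3′ end of *Txndc5*, the antisense gene *Gm31834* shares 1422 bases, and the pseudogene *Gm47994* lies within the gene over 780 bases. In the transcript shown, the bases shared with *Bmp6* lie in exon 10, and *Gm47994* lies in the intron between exons 3 and 4. The bases shared with *Gm31834* span exon 1 and reach beyond it on both sides. The values of *Bmp6* were 90.2 in WT and 96.4 in KO over the whole gene, and the part from the shared bases is not known. Whether the counting used strand is not given in the sources used here, so it is not known whether reads of these genes entered the value of *Txndc5*.

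None of the other 9 members was past 1.5-fold, and 1 of 10 members with *Txndc5*, beside 7.93% of all genes whose mean value reached 1. Their log2 ratios ran from −0.19 to 0.14 with a median of −0.06, close to the −0.05 of all genes, with 3 values higher and 6 lower in KO. The median size of the log2 ratio, regardless of sign, was 0.10 for the 9 members and 0.15 for all genes whose mean value reached 100.

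The archetype of the family, *P4hb*, encodes PDI itself, which is also the beta subunit of prolyl 4-hydroxylase and of the microsomal triglyceride transfer complex. Its value was 26701 in WT and 28750 in KO, 7.67% higher in KO with a log2 ratio of 0.11. *Pdia3*, which works with calnexin and calreticulin on glycoproteins, had 2560 in WT, 2385 in KO and a log2 ratio of −0.10. Both ratios were smaller in size than those of most genes whose mean value reached 100: 36.5% of these genes had a smaller one than *P4hb* and 34.9% than *Pdia3*.

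*Pdia4*, the other member with 3 sites of the kind seen in *Txndc5*, had 1693 in WT and 1870 in KO. This was the highest ratio of the 10 members, 10.5% above WT, with a log2 ratio of 0.14. *Pdia5* had 1482 in WT and 1385 in KO, with a log2 ratio of −0.10. *Pdia6*, which associates with the chaperone BiP and with stress sensors of the ER, had 1208 in WT and 1263 in KO, with a log2 ratio of 0.06. Of these 3 members, 2 had a higher and 1 a lower value in KO, all within 1.5-fold.

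The 2 members without an active pair of cysteines were among the 6 of the 9 members with lower values in KO. *Erp29*, a chaperone-like member with an inactive thioredoxin fold, had 494.4 in WT and 444.2 in KO, with a log2 ratio of −0.15. *Erp44*, which retrieves ERO1 and unassembled clients from the early secretory pathway, had 480.9 in WT and 460.4 in KO, with a log2 ratio of −0.06. Of the 2 members with 1 active site, *Txndc12* had 331.4 in WT and 321.8 in KO, with a log2 ratio of −0.04. *Tmx1*, the transmembrane member, had 113.8 in WT and 99.9 in KO, with a log2 ratio of −0.19. Of the 9 members, *Tmx1* had the lowest ratio, and it was also the most weakly expressed.

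Levels were compared between genes only per kilobase of annotated exon. In WT, *P4hb* had 9333 normalised reads per kb, followed by *Pdia3* with 815.5, *Pdia4* with 705.5, *Txndc5* with 600.3, *Pdia5* with 534.9 and *Pdia6* with 322.6. *Txndc12* (147.1), *Erp44* (140.7), *Erp29* (54.6) and *Tmx1* (34.5) were lower. *P4hb* made up 73.6% of the summed level of the 10 members in WT and *Txndc5* 4.73%. In KO, *Txndc5* had 20.2 normalised reads per kb, 0.158% of the sum and the last place in the order.

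By this length, the order of the other 9 members was the same in both genotypes except that *Pdia3* (759.9 in KO) and *Pdia4* (779.3 in KO) changed places. By the longest transcript it was *Pdia4* and *Pdia5* that changed places, and by the length in the authors' table no pair did. As no spread between pools is known, it cannot be said which neighbours differ. The level of *Txndc5* in WT was the fourth by the joined length of all annotated exons, and the second by the length of the longest transcript, since *Txndc5* has 4492 bases of exon in all and 2843 in the longest transcript. The sum of the other 9 was 12088 normalised reads per kb in WT and 12782 in KO. On this scale the difference of KO minus WT was 716 for *P4hb* and −580 for *Txndc5*, and per kb of the longest transcript it was 716 for *P4hb* and −917 for *Txndc5*, so that which of them was larger in size turned with the length used.

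**Figure D2:**
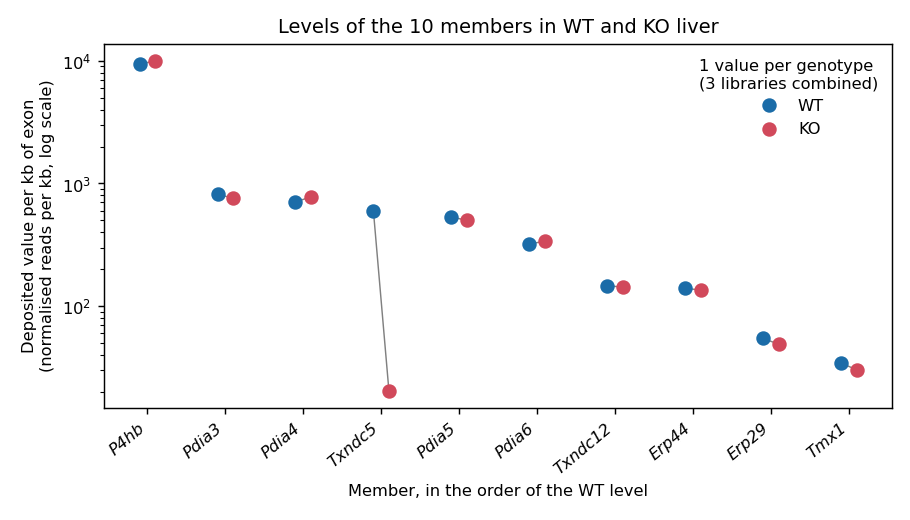
The vertical axis gives the deposited value per kb of exon on a log scale, with 1 point per genotype for each of the 10 members in the order of the WT level. The points of WT and KO lie close together for 9 members, while *Txndc5* goes from 600.3 in WT to 20.2 in KO.

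The RefSeq promoters on GRCm38.p6 were searched for the ER stress element, on either strand, in the 250 bases before and 50 bases after the start of each gene. This element, CCAAT followed after 9 bases by CCACG, is the classical site through which ATF6 and NF-Y raise ER chaperone genes, and a promoter could be searched for 9 of the 10 members. *Erp29* was not among them. The element was found in 39 of 32851 promoters, 0.12%, and in 1 member, *Pdia6*, at chr12:17266491-17266509 on the plus strand, 98 bases before the start site. It is shown with its fixed bases in capitals.
Pdia6 element: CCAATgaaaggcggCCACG

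Each end of the element was also searched alone, on either strand. CCACG was found in the promoters of 6 of the 9 members, *Txndc5* included, and in those of 35.48% of all genes. CCAAT was found in 6 of the 9, *Txndc5* not included, and in 41.06% of all genes. The log2 ratio of *Pdia6*, 0.06, lay within the range of the other members.

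The deposited table annotates 16 genes with protein disulfide isomerase activity, of which 8 are members. *Erp29* and *Txndc12* do not have that annotation. The 8 genes of the annotation that are not members had a median log2 ratio of −0.09.

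The other relatives of the family are less studied, anchored in the membrane or known from other tissues. Of 14 listed relatives 12 were in the table and 9 had a mean value that reached 1. Of these 9, *Tmx3* was past 1.5-fold, with a lower value in KO, and none was past it with a higher value. The median log2 ratio was 0.01, with 5 values higher and 4 lower in KO. *Tmx3*, a transmembrane oxidoreductase, had 25.4 in WT and 15.6 in KO, with a log2 ratio of −0.70. *Pdilt*, known as a testis relative, had 48.2 and 34.8, with a log2 ratio of −0.47. The better expressed *Tmx2* (449.2 in WT and 498.8 in KO), *Txndc11* (460.4 and 464.8) and *Txndc15* (833.4 and 860.3) had log2 ratios of 0.15, 0.01 and 0.05. *Pdia2*, the pancreatic PDI, *Erp27* and *Casq1* had mean values under 1.

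Enzymes that pass electrons to or from PDIs were read as a list of 11 oxidases and redox partners. None was past 1.5-fold, and the median log2 ratio was −0.04, with 5 higher and 6 lower in KO. The oxidases *Ero1l* (102.3 in WT and 93.0 in KO) and *Ero1lb* (268.4 and 327.9) had log2 ratios of −0.14 and 0.29. *Prdx4*, the ER peroxiredoxin that feeds oxidizing power to PDIs, had 997.5 in WT and 870.2 in KO, with a log2 ratio of −0.20. *Vkorc1*, the vitamin K epoxide reductase, had 3272 and 3052, and the sulfhydryl oxidase *Qsox1* 12931 and 12607, with log2 ratios of −0.10 and −0.04. The lowest ratio was that of the selenoprotein gene *Selm*, with 60.8 in WT, 48.0 in KO and a log2 ratio of −0.34.

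Of 17 genes for chaperones, partner subunits and clients of PDIs, 16 had a mean value that reached 1 and none was past 1.5-fold. The median log2 ratio was 0.07, with 12 higher and 4 lower in KO. *Hsp90b1*, which encodes the ER chaperone GRP94, lay just inside the limit, with 4609 in WT, 3112 in KO and a log2 ratio of −0.57. The ratio of *Hspa5*, the gene of the chaperone BiP, was −0.06 on the log2 scale, with 5430 in WT and 5199 in KO. The lectins *Calr* (12826 and 13440) and *Canx* (1268 and 1231) had log2 ratios of 0.07 and −0.04. *Mttp*, whose product shares the *P4hb* protein as a subunit and loads lipid onto apolipoprotein B, had 4503 in WT and 5656 in KO, with a log2 ratio of 0.33. *Sumf1*, the sulfatase-activating enzyme of the ER, had the highest ratio of the list, with 171.1 in WT, 219.2 in KO and a log2 ratio of 0.36.

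The 11 thioredoxin-fold genes from outside the ER, most of them of the cytosol or mitochondria, served as a list for comparison. None was past 1.5-fold, and the median log2 ratio was −0.03. *Txn1*, the cytosolic thioredoxin, had the lowest ratio, with 890.7 in WT, 700.2 in KO and a log2 ratio of −0.35. *Txn2*, its mitochondrial counterpart, had 3471 and 3397 and a log2 ratio of −0.03. Over these 4 lists, 1 of 47 genes whose mean value reached 1 was past 1.5-fold, beside 7.93% of all such genes. Each list held 9 to 16 such genes, so that a count of 0 or 1 in a list cannot be told from that share. The median log2 ratio of the 47 genes was 0.02.

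**Figure D3:**
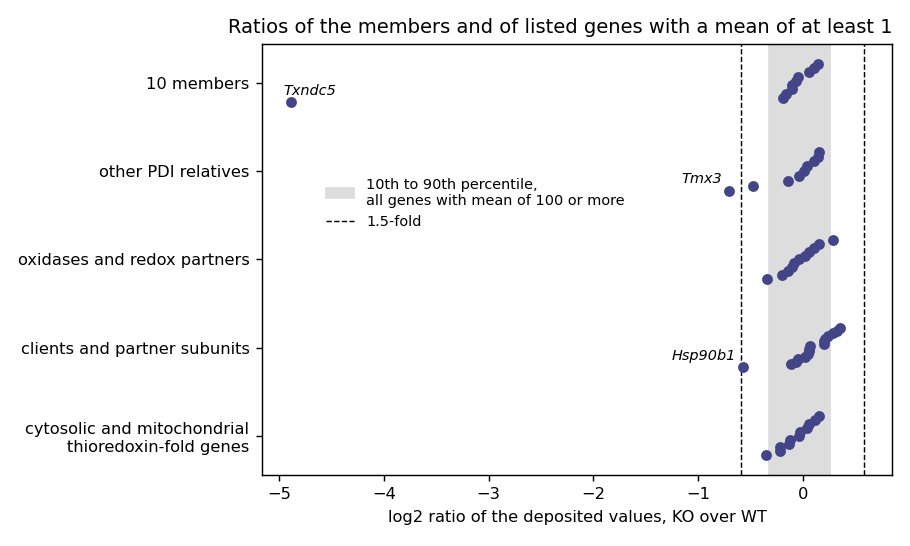
The horizontal axis gives the log2 ratio of the deposited values of KO over WT, with 1 point per gene in each list, for genes whose mean value reached 1. Dashed lines mark 1.5-fold and the grey band the 10th to 90th percentile of all genes whose mean value reached 100, and *Txndc5* and *Tmx3* are the points beyond the lines.

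Reads come in whole numbers, and for weakly expressed genes this allowed the reads per library to be solved from the mean of the 2 deposited values. The recovered libraries have no pool number and are named by genotype and size factor, which were 1.31, 1.04 and 0.886 in KO and 1.22, 0.879 and 0.818 in WT. Their genotype was read from the genotype column in which genes with a single read were higher. Of the members and listed genes, 14 had a sum of up to 400 normalized reads and were resolved to 1 set of reads, and 8 of these had a sum of at least 60. In none of these 8 did the values of WT and KO fail to overlap, against 5.72% of all 3307 resolved genes of that range. In the exact permutation tests of 3 libraries against 3, two-sided, whose smallest possible p is 0.1, no gene of the 8 had a p below 0.2. These tests set the difference in genotype means against the differences between libraries, which include counting noise, and not against the spread between mice.

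*Tmx3* had recovered normalized reads of 54.7, 10.2 and 19.6 in the WT libraries of size factor 1.22, 0.879 and 0.818, and of 27.4, 6.76 and 4.52 in the KO libraries of size factor 1.31, 1.04 and 0.886. The library of largest size factor was the highest in both genotypes, and the groups overlapped. The means were 28.2 ± 23.4 in WT and 12.9 ± 12.6 in KO (SD, n = 3), a log2 ratio of −1.13 (exact permutation test, p = 0.5). Without the WT library of size factor 1.22 the log2 ratio was −0.21, and without the KO library of size factor 1.31 it was −2.32, so that the size of the difference rested on single libraries.

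*Pdilt* had 60.4, 53.5 and 35.5 in the WT libraries and 51.1, 20.3 and 28.2 in the KO libraries, in the same order. The means were 49.8 ± 12.9 in WT and 33.2 ± 16.0 in KO (SD, n = 3), with an exact permutation p of 0.2. The values of the genotypes overlapped through the KO library of size factor 1.31. *Tmx4*, another transmembrane relative, had 101.2, 38.7 and 25.7 in WT and 70.1, 49.2 and 27.1 in KO (exact permutation test, p = 0.9). *Txndc16* had 22.9, 20.5 and 8.56 in WT and 22.1, 26.1 and 12.4 in KO (exact permutation test, p = 0.6).

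Of 1193 genes with a sum over 400 and up to 650, 456 were resolved to 1 set of reads. *Tmx1*, with a sum of 641, was not among them, and was the single member for which a reading by library could be made. Of 10 sets of whole reads that give its value, those were kept whose log2 ratio, multiplied by 0.78, lay within 0.084 of the deposited one. From the sets kept, the one with the least spread within genotypes was taken, so that its spread may be too small. It gave 180.4, 110.3 and 55.0 in the WT libraries and 147.8, 83.0 and 64.4 in the KO libraries, and the groups overlapped. Since the ratio and the spread chose this set, no test was made on it. By the same choice *Dnajc10*, which reduces disulfide bonds of proteins bound for degradation, had 121.7, 100.1 and 56.3 in WT and 138.7, 94.6 and 70.0 in KO. *Ero1l* had 156.0, 96.7 and 56.3 in WT and 103.6, 95.6 and 77.9 in KO. The sets of these last 2 genes were chosen likewise and were not tested.

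The library of largest size factor was the highest of both genotypes in 3 of the 8 genes with a sum of 60 to 400, *Tmx3*, *Tmx4* and *Pdilt*, and in 40.1% of all 3307 resolved genes of that range. *Selm* was among the others, with 29.4, 84.2 and 73.4 in WT and 33.5, 53.1 and 53.1 in KO (exact permutation test, p = 0.5). *P4ha2*, a catalytic subunit that pairs with the *P4hb* protein to hydroxylate collagen, had 18.8, 31.8 and 36.7 in WT and 39.6, 33.8 and 37.3 in KO (exact permutation test, p = 0.2). The part of these library differences in the deposited ratios was not tested.

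**Figure D4:**
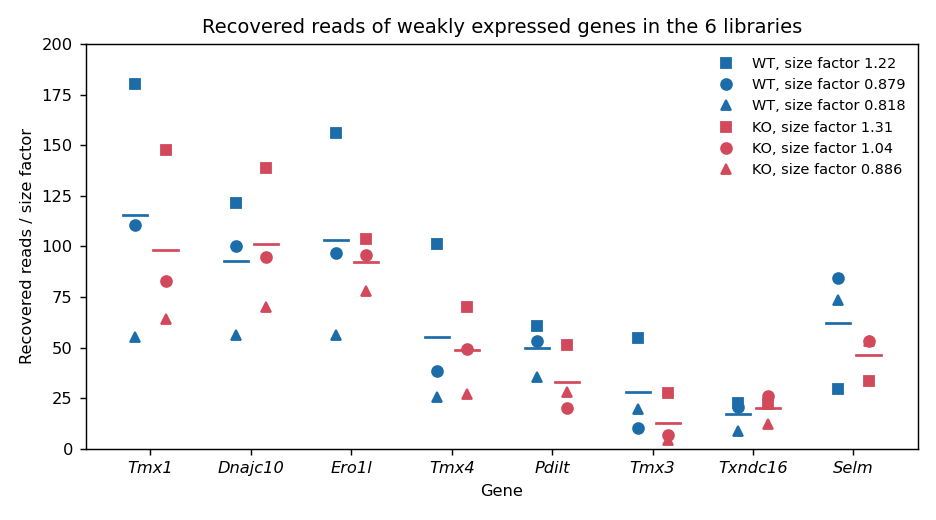
The vertical axis gives recovered reads divided by the size factor for 8 weakly expressed genes, with 1 point per library, shapes for the 3 libraries of a genotype and bars for the means. WT and KO points overlap in every gene shown, and in *Tmx1*, *Dnajc10*, *Ero1l*, *Tmx4*, *Pdilt* and *Tmx3* the libraries of largest size factor (squares) lie highest in both genotypes, where the reads of *Tmx1*, *Dnajc10* and *Ero1l* are those of the chosen sets.

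In pooled liver RNA, fewer cells of a type and less RNA per cell cannot be told apart. Of the markers fixed for each cell type, those of hepatocytes led by *Alb* (1329546 in WT and 1332576 in KO) had log2 ratios from −0.40 to 0.00, and those of endothelium from −0.14 to 0.11. The 5 red cell genes were all higher in KO, with log2 ratios of 0.40 to 0.79, 2 of them past 1.5-fold, and a sum of 118783 in WT and 180301 in KO. Of 5 Kupffer cell genes 4 were higher, 1 of them past 1.5-fold, with sums of 1986 and 2335, and of 5 stellate cell genes 1 was past 1.5-fold, *Col1a1*, with a higher value in KO (85.6 in WT and 144.5 in KO), while the sums were 2064 and 1777, led by *Dcn* (1296 and 915). The genes of B cells and of plasma cells, the latter known for a high level of *Txndc5*, had sums of 65.0 in WT and 55.0 in KO, with 2 of 4 genes higher in KO. The plasma cell genes *Jchain* (3.57 in WT and 5.10 in KO) and *Mzb1* (4.30 and 4.71) were the higher ones, and the B cell gene *Cd79a* (37.4 and 26.8) led the sum. The sums were, for cholangiocytes, 156.1 and 148.9 and, for pancreatic acinar cells, 119.8 and 136.0, led by *Cela1* (88.1 in WT and 93.4 in KO). All 6 acinar genes were higher in KO and 3 were past 1.5-fold. These 3 had low values: *Cpa1* (2.25 and 3.39), *Ctrb1* (4.35 and 6.95) and *Amy2a5* (3.25 and 5.60). Of all genes whose mean value reached 1, 2.01% were past 1.5-fold with a higher value in KO. The part of these cell types in the values of the PDI family was not tested.

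Depth in clean reads was alike in the 6 libraries, with 44040160 to 46050030 clean reads, of which 91.6% to 93.7% were mapped. The size factors of the recovered libraries differed more, from 0.818 in WT to 1.31 in KO. What lies behind this was not tested, and the recovered libraries cannot be matched to pools. The KO libraries held 45727869 ± 355911 and the WT libraries 44686927 ± 1075721 clean reads (SD, n = 3), a difference within the spread between pools (exact permutation test, two-sided, p = 0.3, the smallest possible being 0.1).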

How the data were processed

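RNAseq libraries of 3 WT and 3 KO liver pools were matched to genotype through their titles. The sequencing service of the authors filtered and mapped the reads. The submitters' processing notes name HISAT2, Bowtie2, RSEM, StringTie, Cufflinks and GATK and the build mm10, and which of them made the expression table is not given in the sources used here. The deposited expression signal, 1 value per genotype, is in reads divided by DESeq2 size factors, the authors' combination of 3 libraries. The deposited clean read counts and mapped percent values are those of the sequencing service. Columns with the authors' log2 ratio, p-value, adjusted p-value and direction were not used, nor were the totals of splicing events, which are not given by gene. No column of per-sample values was left out.

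Counts per library had been planned for. With 1 value per genotype, ratios were formed with no pseudocount and described without a test. The members and lists were chosen with earlier results of these data known. Named genes are the members, genes of the lists, and the 5 lowest ratios at a mean value of at least 100, of which 1 is not reported here. *Bmp6* was named for its overlap. Reads were recovered by enumerating all sets of 6 whole numbers that give the mean of a gene's 2 values within 2.5 times its rounding, which resolved 8063 of 8081 genes with a sum of up to 400. In simulated data, 599 of 600 sets of reads with sums of 60 to 400 were resolved, and all of these were right. For sums of 400 to 650 a choice among several sets, added after the data were seen, was right in 179 of 184 such sets. The simulated ratios were built with the same slope that the choice used. This share was not split by the number of sets, which was 10 for *Tmx1* at a sum of 641. Exact permutation tests used scipy 1.17.1 in Python 3.11.15. Positions, exons and sequences came from GENCODE M21 and promoters from RefSeq. Proteins were aligned with BLOSUM62 in Biopython, and their letters are not shown. Exon lengths were found for 94.7% of genes. Alternatives were pseudocounts of 1 and 0.1, centring, a lower and a higher fold, filters on the mean value, other lengths and leaving out libraries.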

Additional observations from a re-analysis of the deposited data

How the results depend on the processing

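The log2 ratio of *Txndc5* stayed between −4.89 and −4.85 and the median of the other 9 members between −0.06 and −0.02 with pseudocounts of 1 or 0.1 and after centring on the median of all genes, and 1 of 10 members was past the limit at 1.5-fold, at 2-fold and at a lower limit of 0.322 on the log2 scale. At the lower limit, which 27.0% of all genes passed, 2 other relatives, 1 oxidase or redox partner, 3 clients or partner subunits and 1 cytosolic gene were past it, and at 2-fold, which 0.879% of all genes passed, 0 relatives were. At 1.5-fold, filters on the mean value, a pseudocount of 1 and centring left the counts of the members and of the 4 lists as they were, and the share of all genes was 6.93% with no filter, 7.35% for genes whose mean value reached 10 and 7.51% after centring. By the longest transcript, and by the length in the authors' table, chosen after seeing the data, *Txndc5* ranked 2 of 10 in WT and not 4. *Erp29* ranked 9 of 10 by the joined exons and by the longest transcript, and 7 by the authors' length. Leaving out 1 library at a time, the difference in clean reads ran from 717558, without WT pool 1, to 1661830, without WT pool 2, and 0 to 2 of the 8 weakly expressed genes did not overlap: *Pdilt* and *Tmx3* without the KO library of size factor 1.31, *P4ha2* without that of 1.04, *Gpx7* and *Selm* without the WT library of 1.22, and *P4ha2* and *Pdilt* without that of 0.818, where 10.6% to 20.1% of all resolved genes did not overlap. No paired analysis was possible because the WT and KO pools share fewer than 2 numbers and the deposited values combine the pools. The 1 value per genotype limits what can be said of the members: differences of the size seen in the other 9 cannot be set against the spread between mice.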
